A study of Mus musculus with 7 samples.

Results

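Activins are secreted dimers of inhibin beta subunits, and their genes, receptors and main antagonist were examined for Fos binding in mouse hippocampus after a seizure. The 8 genes were Inhba and Inhbb (inhibin beta subunits), Fst (follistatin, which binds and neutralises activin), the type I receptors Acvr1, Acvr1b and Acvr1c, and the type II receptors Acvr2a and Acvr2b. They were taken by name from 21883 protein-coding genes of the RefSeq table of GRCm38.p6, and all 8 were found there. For each gene, every Fos peak that reached into the gene span or the 50 kb on either side of it was counted in each of 6 peak lists.

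The lists come from chromatin immunoprecipitation and sequencing (ChIP-seq) for Fos, which pairs with Jun proteins to form the activity-induced transcription factor AP-1. Wild-type C57BL/6J mice aged 2 months received saline (3 libraries) or kainic acid (3 libraries), an agonist of glutamate receptors that causes seizures. Kainic acid was given into the peritoneum as 2 injections of 10 mg/kg, 30 min apart, and mice that reached seizure level 4 were killed 1 hour after the first of them. How many animals a library pools is not given in the labels, and an input library (chromatin without antibody) is named there whose values are not used here. Whole hippocampus was used, so the cell types that carried a peak cannot be told apart. Nothing in the labels says that libraries of a group came from separate animals, so their spread may be technical.

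An activin dimer first binds a type II receptor, which recruits and phosphorylates a type I receptor, and that kinase in turn phosphorylates Smad2 and Smad3. The phosphorylated Smads join Smad4 and enter the nucleus to act on target genes. In the hippocampus, Inhba is known as a gene whose mRNA rises after seizures and synaptic activity, and activin A has been linked to dendritic spines and to neuronal survival.

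The libraries differed greatly in the length of their lists, which bears on every count below. Kainic acid replicates 1, 2 and 3 held 15009, 63197 and 29650 peaks, and the saline lists held 7, 3277 and 2. Near the 8 genes lay 23, 80 and 46 kainic acid peaks, and 0, 2 and 0 saline peaks, in the same order. Absence from a list means that no peak was called, and Fos may still have been bound. Read depth does not come with the lists, so no depth can be set beside a count.

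RefSeq promoter sequences of GRCm38.p6 were found for 7 of the 8 genes, all but Fst, and gave 8 start sites because Acvr1c has 2. The 3 stretches of 250 bases below end just before a start site and are shown because they are the promoters nearest to Fos regions. Capitals mark bases inside a region that 2 or more kainic acid lists shared, and each sequence is written 5′ to 3′ on the strand of its gene. Inhba lies on the plus strand at chr13:16011601-16011850, the internal Acvr1c start on the minus strand at chr2:58324808-58325057, and Acvr1 on the minus strand at chr2:58566829-58567078.
Inhba: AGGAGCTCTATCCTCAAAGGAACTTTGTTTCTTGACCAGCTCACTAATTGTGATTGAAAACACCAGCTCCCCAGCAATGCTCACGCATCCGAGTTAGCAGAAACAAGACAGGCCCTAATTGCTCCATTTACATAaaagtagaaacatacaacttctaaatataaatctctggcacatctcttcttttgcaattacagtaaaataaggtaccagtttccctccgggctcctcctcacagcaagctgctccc
Acvr1c, internal start: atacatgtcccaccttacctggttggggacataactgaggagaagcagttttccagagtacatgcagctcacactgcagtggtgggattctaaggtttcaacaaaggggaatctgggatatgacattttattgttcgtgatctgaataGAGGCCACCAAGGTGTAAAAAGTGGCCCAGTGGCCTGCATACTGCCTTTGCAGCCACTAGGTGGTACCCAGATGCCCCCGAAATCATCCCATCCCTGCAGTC
Acvr1: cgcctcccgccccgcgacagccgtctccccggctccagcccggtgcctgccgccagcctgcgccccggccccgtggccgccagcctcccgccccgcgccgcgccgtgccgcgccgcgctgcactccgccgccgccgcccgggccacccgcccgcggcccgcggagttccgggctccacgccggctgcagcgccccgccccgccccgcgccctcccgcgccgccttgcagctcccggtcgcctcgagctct

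In the Inhba promoter 134 of the 250 bases were inside a Fos region, and at the internal Acvr1c start 102 were. The Acvr1 promoter held none, but the nearest Fos region began 106 bp beyond its outer end. Of the 8 promoter windows (250 bases before a start and 50 from it on), 2 overlapped a region in at least 2 kainic acid lists, against 5.15% of the 21262 windows of protein-coding genes. Both of these regions were called in replicates 2 and 3 alone, and without either library 0 of the 8 windows overlapped a region (1.65% and 2.18% of all windows). These 2 windows were also the least GC-rich of the 8 over the bases before the start, at 43.2% for Inhba and 49.6% for the internal Acvr1c start. The other 6 ranged from 68.0% to 85.6%. Over all promoters the order was the other way, and the median GC content was 60.8% in windows overlapping a region and 55.2% in the rest. Neither the AP-1 sequence TGANTCA nor the cAMP response element TGACGTCA or its core TGACG (which lies inside the full element) was found in any of the 8 windows on either strand. Among all 21262 windows, 6.99%, 2.23% and 23.6% held them. Most of each Fos region lies outside these windows, and its sequence was not analysed here.

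Inhba encodes the beta A subunit of activin A and had Fos peaks in every kainic acid library and in no saline library. Its 127 kb window held 3, 13 and 6 peaks in kainic acid replicates 1, 2 and 3 and 0, 0 and 0 in saline replicates 1, 2 and 3. Every kainic acid count was thus above every saline count, with means of 7.33 ± 5.13 (SD, n = 3) and 0. The exact permutation test gave p = 0.1 (two-sided), the smallest that 3 libraries against 3 allow, and 0.299 after Benjamini-Hochberg adjustment over all 21883 genes. With kainic acid, 33.5% of all genes passed the same criterion of groups that did not overlap. Saline replicates 1 and 3 held 7 and 2 peaks over the genome, so on the saline side the criterion turned almost only on saline replicate 2. For this gene and those below, neither the call nor its p-value can tell the treatment apart from the length of the lists.

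**Figure D1:**
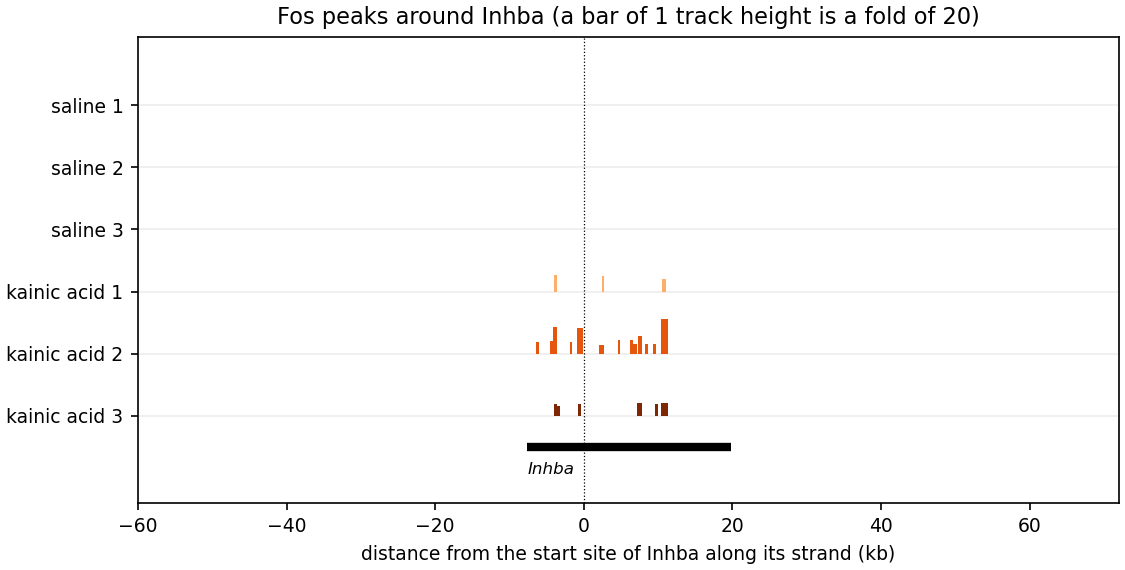
Fos peaks within 50 kb of Inhba, plotted by distance from its start site along the strand (x axis, kb), with 1 track per library. Bar height is the authors' fold of the peak within its own library and the black bar is the RefSeq span. All kainic acid peaks (3, 13 and 6) sit inside the span and none lie in the 50 kb flanks, and the 3 saline tracks are empty.

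All Inhba peaks lay inside the gene's own span (chr13:16004256-16031609), within a stretch of 17.8 kb, and none lay in the flanks on either side. RefSeq draws this span from 7.60 kb before the start site used above, so that some of these peaks precede that start. Merging peaks that shared a base gave 13 regions with a kainic acid peak. Of these, 2 were in all 3 lists, 4 in exactly 2 lists and 7 in a single list. The gene table has no exons, so exonic and intronic positions were not separated.

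The Inhba region nearest the start, chr13:16010879-16011734, was called in kainic acid replicates 2 and 3 and not in replicate 1. Its summits in the 2 lists were 2 bp apart and lay on average 590 bp before the start. The authors' fold, the ratio of a peak to its local background within 1 library, was 8.34 and 3.70. Folds are not scaled between libraries, so ranks within a list are used instead. They are given as percentiles, where 0 is the highest fold of the list and 100 the lowest. Because the lists differ in length, similar ranks can give different percentiles, and a percentile does not compare strength between libraries. On that scale this region stood at 9.61 in replicate 2 and at 62.6 in replicate 3, so that its place differed widely between the libraries.

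Both Inhba regions called in all 3 libraries lay away from the start. The one at chr13:16007738-16008268, 3.88 kb before the start, had folds of 5.40, 8.56 and 3.71 in replicates 1, 2 and 3. Its percentile ranks were 24.1, 8.82 and 62.5, a mean of 31.8, the best of the gene by fold. The one at chr13:16022233-16023227, 10.7 kb after the start, had folds of 4.00, 11.2 and 4.19 and percentile ranks of 64.5, 3.76 and 42.6. Ranked by −log10 q instead, it led the gene, with a mean percentile of 22.5 against 32.5 for the region before the start. By fold, both regions stood high in the list of replicate 2, the longest, and in replicate 3 they stood near or below the middle of the list. The other 3 regions, 2.49, 7.61 and 9.65 kb after the start, had mean percentile ranks of 64.4, 37.8 and 76.1. Without kainic acid replicate 2 the Inhba regions fell from 6 to 2, and without replicate 3 to 3. With −log10 q of at least 10 only 1 of them was left and Inhba no longer had a peak in every kainic acid list.

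Inhbb, which encodes the beta B subunit, had 0, 3 and 1 peaks in kainic acid replicates 1, 2 and 3 and 0, 0 and 0 in the saline lists. Since replicate 1 had none, the groups overlapped (exact permutation p = 0.4, adjusted 0.685). A single region, chr1:119390715-119391165, was in 2 lists, with folds of 7.16 and 4.08 in replicates 2 and 3 and summits 23 bp apart. It lay 24.3 kb outside the 6.79 kb gene span and 31.4 kb after the start, in no protein-coding gene. Without replicate 2 or replicate 3 no region was counted for Inhbb. Between the beta subunits the number of regions was 6 against 1, in windows of 127 and 107 kb.

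Fst, the activin antagonist, had 0, 2 and 0 kainic acid peaks and no saline peak. Both peaks were in replicate 2 alone, at chr13:114405902-114406187 (fold 6.07, 46.1 kb outside the span) and at chr13:114457400-114457694 (fold 3.02, inside it). No region near Fst was therefore supported by a second library, and the groups overlapped (exact permutation p = 1, adjusted 1).

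**Figure D2:**
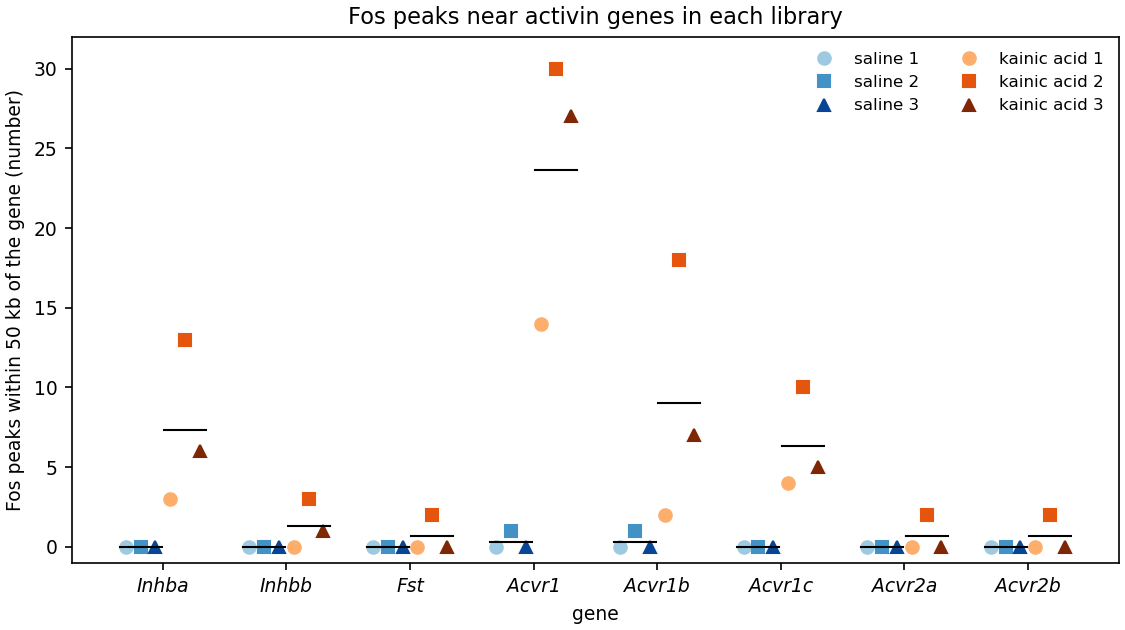
Number of Fos peaks within 50 kb of each gene (y axis), with 1 point per library and a black line at the mean of each group of 3. Saline points stay at 0 or 1, and all 3 kainic acid points lie above them for Inhba, Acvr1, Acvr1b and Acvr1c.

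The windows of the type I receptors, the kinases that phosphorylate Smads, held most of the Fos regions within reach of the 8 genes. Among the 41 regions with support from 2 or more kainic acid libraries, 34 were near Acvr1, Acvr1b or Acvr1c, and 0 were near Acvr2a or Acvr2b. Of the 34, 18 lay inside the receptor's own span, 21 had the receptor as their nearest gene and the other 13 lay in Upp2 or nearest to Grasp. No region was counted for more than 1 gene, although Acvr1 and Acvr1c are neighbours on chromosome 2. Per 100 kb of window, Acvr1 had 9.53 regions, Acvr1b 4.3 and Acvr1c 3.68, against a median of 0.871 over all genes and an upper quartile of 1.93. Inhba, at 4.71, was within the range of these receptors, and Inhbb, at 0.936, was close to the median of all genes.

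Acvr1, a type I receptor that also serves bone morphogenetic proteins, had the most peaks of the 8 genes in each kainic acid library. Its 220 kb window held 14, 30 and 27 peaks in replicates 1, 2 and 3, and 0, 1 and 0 in the saline lists. The lowest kainic acid count was well above the highest saline count, with means of 23.7 ± 8.50 and 0.333 ± 0.577 (SD, n = 3 each; exact permutation p = 0.1, adjusted 0.299). Merging gave 21 regions in at least 2 lists, of which 11 were in all 3. As many regions or more were counted for 0.430% of all genes. Without kainic acid replicate 2, and likewise without replicate 3, the number was 11.

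**Figure D3:**
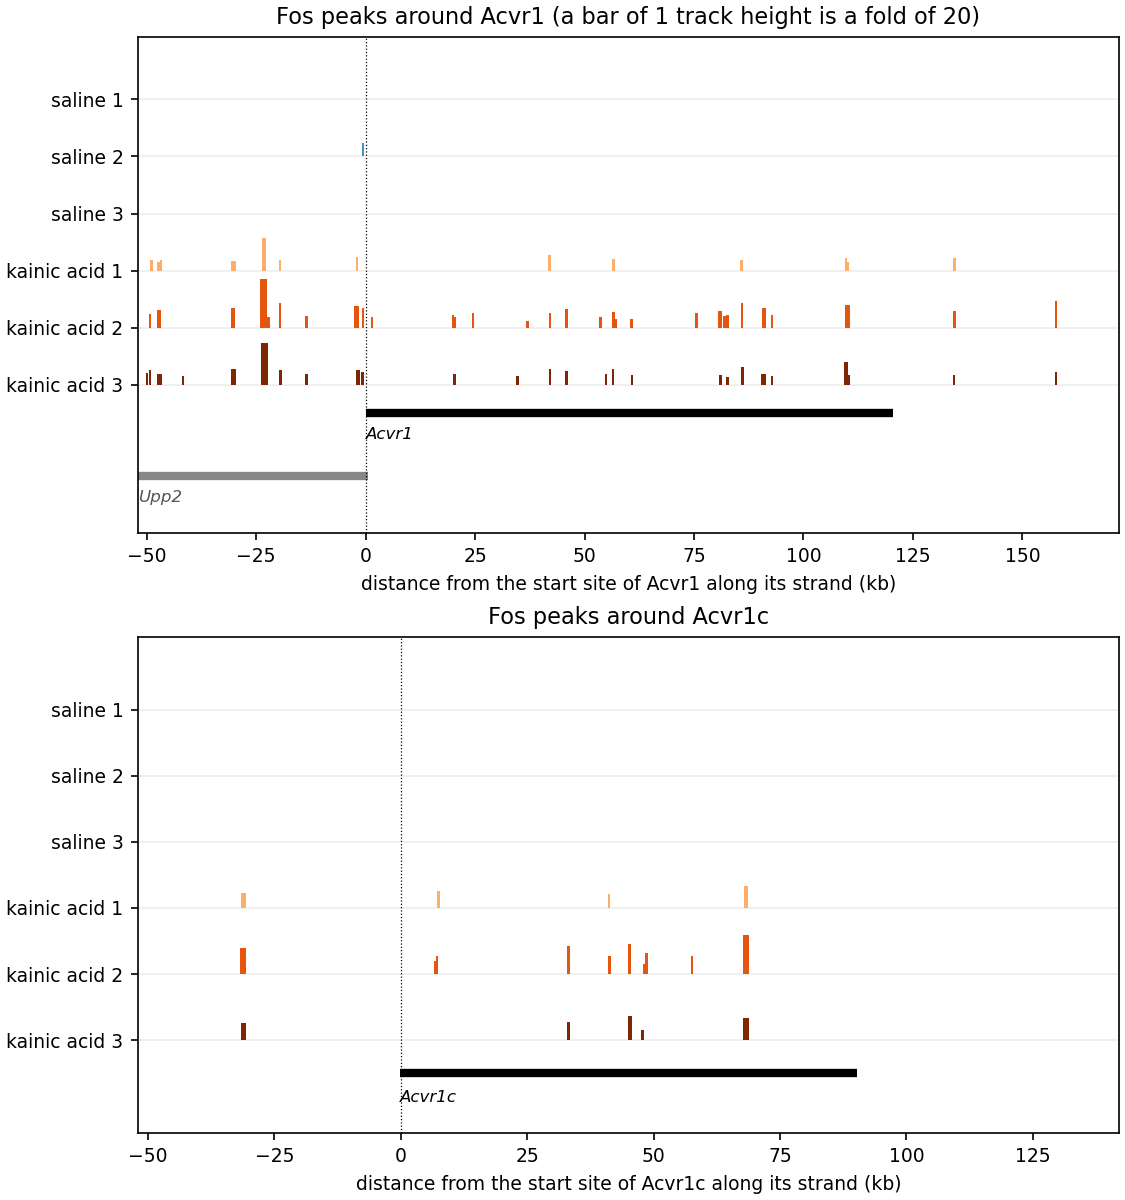
Fos peaks around Acvr1 (top) and Acvr1c (bottom), by distance from the start site along the strand (x axis, kb), with 1 track per library and bar height as the authors' fold. Black bars are the RefSeq spans and the grey bar is Upp2. The tallest bars of the Acvr1 panel stand 23.1 kb before the start in all 3 kainic acid tracks.

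The best ranked region of the whole set was not inside Acvr1 but inside Upp2, the uridine phosphorylase gene that starts next to it on the other side. This region, chr2:58588833-58590856, had folds of 11.5, 16.9 and 14.5 in kainic acid replicates 1, 2 and 3 and no saline peak. It stood at rank 131.5 of 15009 (tied ranks averaged), rank 491 of 63197 and rank 70 of 29650, a mean percentile of 0.626. Its summits lay within 78 bp of each other, 23.1 kb before the Acvr1 start. Proximity alone does not say which gene, if any, a region acts on.

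Of the 21 Acvr1 regions, 11 were inside the Acvr1 span, 8 inside Upp2 and 2 past the far end of Acvr1 in no protein-coding gene. The best ranked of those inside Acvr1, chr2:58456169-58457504, had folds of 4.56, 7.87 and 7.84 and a mean percentile of 20.1, and lay 110 kb after the start. Closest to the start was chr2:58567184-58567705, whose summits averaged 576 bp before it, with folds of 6.87 and 4.48 in replicates 2 and 3. It also covers a RefSeq start site of Upp2, which is transcribed in the opposite direction. This was the only one of the 41 regions with a saline peak, called in saline replicate 2 with a fold of 4.59. The next one, chr2:58568210-58569466, 1.90 kb before the start, was in all 3 kainic acid lists with folds of 4.58, 7.66 and 5.20 and had no saline peak.

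Acvr1c, a type I receptor used by activin B and by nodal, had 4, 10 and 5 peaks in kainic acid replicates 1, 2 and 3. The saline lists had 0, 0 and 0, so the groups did not overlap (means 6.33 ± 3.21, SD, n = 3, and 0; exact permutation p = 0.1, adjusted 0.299). Of its 7 regions, 6 were inside the 90.4 kb span. Inside the span, the only region in all 3 lists was chr2:58288912-58290038. It lay 68.3 kb after the first start and had folds of 6.72, 12.0 and 6.82, a mean percentile of 7.29. A region in replicates 2 and 3 only, chr2:58312112-58312911, had a mean percentile of 7.12 over those lists (7.45 and 6.78), with summits 11 bp apart. In the same lists chr2:58288912-58290038 stood at 2.88 and 8.76. At the internal start printed above, 33.0 kb after the first, chr2:58324331-58324909 had folds of 8.51 and 5.38 in replicates 2 and 3 and was not called in replicate 1. Outside the span, chr2:58388304-58389614 was in all 3 lists, 31.1 kb before the first start. Acvr1c had 2 regions without kainic acid replicate 2 and 4 without replicate 3.

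Acvr1b, the main type I receptor of activin A, had 2, 18 and 7 peaks in kainic acid replicates 1, 2 and 3 and 0, 1 and 0 in saline. The lowest kainic acid count exceeded the highest saline count by a single peak (means 9.00 ± 8.19 and 0.333 ± 0.577, SD, n = 3 each; exact permutation p = 0.1, adjusted 0.299). Of its 6 regions, however, 1 was inside the gene and 5 lay past its far end with Grasp, a postsynaptic scaffold gene, as the nearest gene. Both regions in all 3 lists were among these 5. They were chr15:101226765-101227614, inside Grasp (folds 6.14, 8.03 and 8.24, mean percentile 9.92), and chr15:101235186-101236377, in no gene (folds 4.21, 12.4 and 7.98, mean percentile 21.4). With a reach of 10 kb, Acvr1b had 2 regions and its groups overlapped, and it also had 2 without replicate 2 or without replicate 3.

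**Figure D4:**
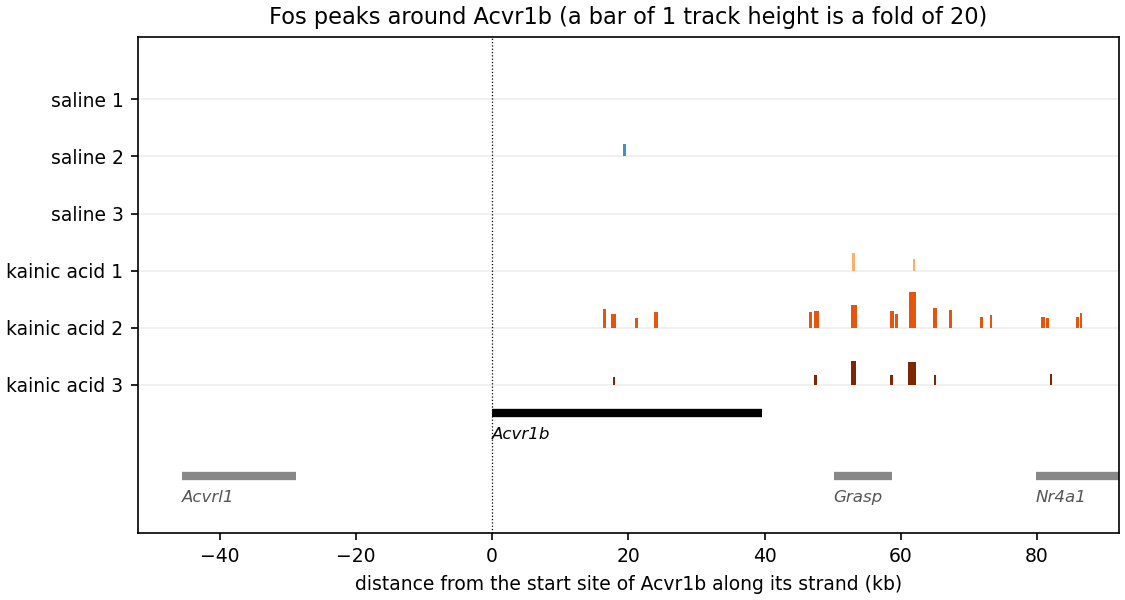
Fos peaks around Acvr1b by distance from its start site along the strand (x axis, kb), with 1 track per library and bar height as the authors' fold. The black bar is Acvr1b and grey bars are neighbouring genes. The tallest bars stand past the far end of Acvr1b, at 53.0 kb inside Grasp and at 61.9 kb beside it.

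The region inside Acvr1b, chr15:101191455-101192271, had folds of 4.84 and 2.58 in replicates 2 and 3 and the weakest mean percentile of the gene, 69.1. The saline peak of this window, chr15:101193374-101193583, was also inside Acvr1b, with a fold of 4.41 in saline replicate 2, and no kainic acid peak touched it. The window also reaches the immediate early gene Nr4a1, where 4 of the 18 peaks of replicate 2 lay.

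Type II receptors, which bind the ligand first, had few peaks and no shared region. Acvr2a had 0, 2 and 0 kainic acid peaks and 0, 0 and 0 saline peaks, and Acvr2b had the same numbers. All 4 peaks were in replicate 2, with folds of 3.18 and 3.19 near Acvr2a and 3.70 and 3.59 near Acvr2b, at percentiles of 73.6 to 90.2 of that list. The groups overlapped for both genes (exact permutation p = 1, adjusted 1). Spans were 89.2 kb for Acvr2a and 40.6 kb for Acvr2b, and 120, 39.6 and 90.4 kb for Acvr1, Acvr1b and Acvr1c. Whether span length bears on the difference between the receptor types was not tested. With a reach of 100 kb, 2 regions were counted for Acvr2a, 1 for Acvr2b and 1 for Fst.

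Over the set, 4 of 8 genes had more peaks in every kainic acid library than in every saline library, which is 50.0% beside 33.5% of all genes. A region in at least 2 kainic acid lists was within reach of 5 of 8, or 62.5%, beside 62.7% of all genes, so this share was at the background. For regions in all 3 lists it was 4 of 8 (42.5% of all genes). A region inside the gene's own span was present in 4 of 8 (28.5% of all genes). Median numbers of regions were 3.5 for the 8 genes and 1 for all genes. Without kainic acid replicate 2, or without replicate 3, these medians were 1 and 0. The median span of all genes is 17.2 kb. Spans of the 8 genes were 6.73 kb for Fst, 6.79 kb for Inhbb and 27.4 to 120 kb for the others. Most were thus longer than usual, and none of these comparisons was matched for length. Saline peaks were near 2 of 8 genes, Acvr1 and Acvr1b, beside 30.2% of all genes. No gene of the 8 had every saline count above every kainic acid count, and 0.0% of all genes did. With 7 and 2 peaks in the whole lists of saline replicates 1 and 3, almost no gene could meet this criterion. It therefore says nothing about direction.

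Replicate support near these genes followed the length of the lists. Of 83 regions with a kainic acid peak, 41 (49.4%) were in at least 2 lists, beside 40.3% over the genome. All 41 were in replicate 2, 38 in replicate 3 and 20 in replicate 1. Without replicate 2 the number in the other lists was 17, and without replicate 3 it was 20. Exactly 2 lists held 24 of them, 21 of which were in replicates 2 and 3 and 3 in replicates 1 and 2. Of the 42 regions in a single list, 36 were from replicate 2 and 6 from replicate 3. The share in all 3 lists was 17 of 41, or 41.5%, beside 44.4% over the genome. Across the 17, the summits of the 3 libraries spread over 32 to 578 bp with a median of 109 bp, beside 122 bp for all regions in all 3 lists.

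**Figure D5:**
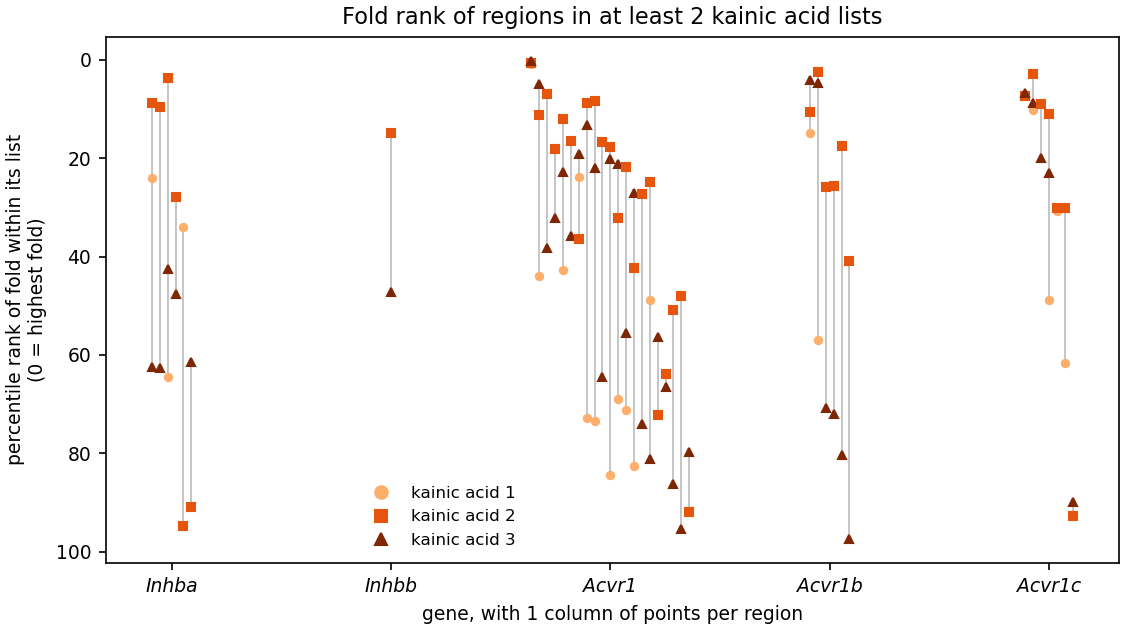
Percentile rank of the authors' fold within each kainic acid list (y axis, 0 is the highest fold) for the 41 regions in at least 2 lists, grouped by gene. Each column of points is 1 region and its points are the libraries that called it. Percentiles of 1 region often lie far apart between libraries, whose lists differ in length. The region of the Acvr1 window with the best mean rank, 0.626, is close to the top in all 3.

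In fold rank, the regions near these genes lay close to regions elsewhere. Those in all 3 lists had a median mean percentile of 31.6, beside 30.3 over all such regions, and those in exactly 2 had 48.6, beside 51.2. A mean percentile under 10 was reached by 4 of the 41 (9.76%), beside 7.72% of all regions. They were 1 region in the window of Acvr1 (inside Upp2), 1 in that of Acvr1b (inside Grasp) and 2 inside Acvr1c, and none was near Inhba. Saline peaks were absent from 40 of the 41 regions, 97.6% (95% Clopper-Pearson interval 87.1 to 99.9, counting error only), beside 98.0% over the genome. Because saline replicates 1 and 3 hold 7 and 2 peaks, this share turns on the list of saline replicate 2, without which it was 100%.

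The other genes of the pathway gave shares near or above the background. Of 20 further ligands, antagonists, coreceptors, Smads and nuclear partners, 16 (80.0%) had a region in at least 2 kainic acid lists, beside 62.7% of all genes. The best ranked region touched the gene itself for Mstn, Fstl1, Tgfbr3, Smad3, Smad7, Zfyve9 and Ski. For Inhbc, Smad4, Tgif1, Gdf11, Inha, Fstl3 and Tdgf1 it lay outside and overlapped another gene, 50.0 kb away for Inhbc. For Bambi and Skil it lay outside, in no protein-coding gene. Non-overlapping counts, higher with kainic acid, were found for 7 of 20 (35.0%, beside 33.5%), namely Gdf11, Fstl1, Tgfbr3, Bambi, Smad3, Ski and Tgif1, and 0 were lower. The median was 2 regions per gene. Saline peaks were near 9 of the 20 (45.0%, beside 30.2% of all genes), all of them from saline replicate 2.

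Best ranked in that list was a region inside Ski, a corepressor of Smads, at chr4:155156521-155157280, with folds of 8.92, 15.6 and 11.8 and a mean percentile of 1.62. Smad3, which activin receptors phosphorylate, followed with chr9:63718490-63719385 inside the gene (folds 8.38, 19.0 and 8.96, mean percentile 2.48). Smad3 had 7, 40 and 17 peaks with kainic acid and 0, 1 and 0 with saline. The region at Fstl3, a relative of follistatin that also binds activin, lay 11.2 kb outside that gene, where it overlapped Palm and Prss57 (mean percentile 6.11). At Zfyve9, whose protein anchors Smads at the receptor, the best region had a mean percentile of 8.10. No region was near Inhbe, Igsf1, Smad2 or Foxh1. Within 50 kb of Smad2 and of Igsf1 there was no peak in any of the 6 lists.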

How the data were processed

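Fos ChIP-seq covered 3 saline and 3 kainic acid libraries of mouse hippocampus. The submitters' processing notes name Trim Galore 0.6.4, Bowtie2 2.3.4.3, MACS2 and deepTools 3.5.0 and the build mm10, whose coordinates are those of GRCm38. Peak names in the deposited files carry a mapping quality of 30. Peaks were called per library, and the cutoff and control are not given in the sources used here. Each deposited list gives a score (10 times the −log10 q, rounded down), a fold ratio over local background, a −log10 p and a −log10 q, none of them scaled between libraries.

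Peaks within 50 kb of RefSeq gene spans were counted for all 21883 protein-coding genes. A gene was called when each kainic acid count exceeded each saline count. Counts were compared by a two-sided exact permutation test over 20 assignments, with Benjamini-Hochberg adjustment over all genes. Peaks sharing at least 1 bp were merged across lists. A region's rank uses its highest fold per list, averaged over the kainic acid lists that called it. Counting, merging and the test were tested on simulated data (Python 3.11.15, numpy 2.4.6, scipy 1.17.1, pandas 2.3.3).

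The members, the pathway list and the tests were chosen with earlier results of these data known. All 8 members are named. Of the pathway list, the 4 with the best ranked region and those with no region are named by rule, and the called genes were named after their values were seen. Alternatives changed the reach, the −log10 q, the number of lists, summit against peak position, list length and each library.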

Additional observations from a re-analysis of the deposited data

How the results depend on the processing

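The 4 genes with non-overlapping counts were 7 with a reach of 100 kb, where 43.8% of all genes passed, 3 with 10 kb (20.7%) or −log10 q of at least 10 (17.5%), and 4 to 5 with a library left out. Inhbb joined them without kainic acid replicate 1, where 53.9% of all genes passed, and without saline replicate 2 the 4 stood beside 44.8%. The 5 genes with a region were 8 at 100 kb, beside 74.7% of all genes, and 4 to 5 with a library left out, beside 42.6% to 62.7%. The 41 regions were 27 at 10 kb, 26 and 14 at a −log10 q minimum of 5 and 10, 22 with equal numbers of kainic acid peaks (15009 per list), 17 in all 3 lists, and 17 to 41 with a library left out, since 2 remaining lists form a single pair. The share with no saline peak turned on 1 region and was 100% with either −log10 q minimum and in all 3 lists, and 97.4% to 100% with a library left out. Pathway genes with a region ran from 13 of 20, where 36.1% to 46.3% of all genes had one, to 18 of 20 at 100 kb, beside 74.7%. Of 104 counts of regions per gene, 34 moved by over 1.5 times, 29 lower and 5 higher. No rank of a strongest region moved beyond the spread of its lists, but ranking by −log10 q made a different Inhba region the strongest. With the replicate block (more kainic acid peaks in each same-numbered pair), 4 genes passed, beside 44.3% of all genes. Nothing in the labels pairs libraries by number. Deviations over genes correlated at 0.214, 0.189 and −0.0377 for same numbers, but with 7 and 2 peaks in saline replicates 1 and 3 they only mirror saline replicate 2 and cannot show pairing. Leaving out a kainic acid library for promoter windows was chosen after seeing the data.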

Other observations

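Among all protein-coding genes, 5 had the same number of peaks as Inhba within 50 kb in each of the 6 lists (0, 0 and 0 with saline, and 3, 13 and 6 with kainic acid). The closest in the rank of their strongest region were 4930544D05Rik and Chrne, both with a mean percentile of 23.0, and Rnf216 with 19.2, where Inhba had 31.8. As 4930544D05Rik and Chrne had identical values (23.0155) and 6 regions each, they may share the same regions and not be separate examples. Likeness here is over 6 libraries and in counts alone.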
